A study of Mus musculus with 6 samples.

Results

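The genes described here encode the front end of interferon signalling: the receptor chains Ifnar1, Ifnar2, Ifngr1 and Ifngr2, the kinases Jak1, Jak2 and Tyk2, and the inhibitors Socs1, Socs3 and Cish. They were chosen by gene symbol. All 10 symbols were found among the 13706 genes of the deposited expression table, and all 10 were among the 13648 genes tested.

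Messenger RNA was measured by QuantSeq, a method that reads a tag at the 3' end of each polyadenylated transcript, in 6 libraries of primary mouse dermal fibroblasts. The 2 control libraries came from Yap1 fl/fl; Wwtr1 fl/fl cells without Cre. The 2 YAP/TAZ knockout (KO) libraries came from cells that carried the same floxed alleles together with R26-CAG-CreER, a ubiquitously driven, tamoxifen-dependent Cre recombinase. The 2 remaining libraries came from cells of this knockout genotype that also received 1 µM H-151, an inhibitor of the adaptor protein STING (KO + H-151). All cells, controls included, were held for 72 hr in 1 µM 4-hydroxytamoxifen. The animals' ages are not given in the sources used here. Nor do these sources say whether paired libraries stem from different cultures or animals, so the p-values rest on a spread between libraries that may be technical. Cre is present only in the knockout groups, so its activity and the loss of YAP and TAZ cannot be told apart.

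Type I interferons bind IFNAR1 and IFNAR2, which carry TYK2 and JAK1, and type II interferon binds IFNGR1 and IFNGR2, which carry JAK1 and JAK2. The activated kinases phosphorylate STAT proteins, which enter the nucleus and switch on target genes through the interferon-stimulated response element (ISRE) or the gamma-activated site (GAS). Socs1, Socs3 and Cish are themselves targets of STAT signalling, and their proteins feed back on receptors and kinases. Fibroblasts are classic responders to both types of interferon.

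The upstream sequences of the genes were examined for the letters of these elements. The table of RefSeq promoters (GRCm38.p6) held all 10 genes, and the 250 bases before each transcript start were searched on both strands for GAAA, any 2 bases and GAAA again, the core of an ISRE, and for TTCNNNGAA, the core of a GAS, where N is any base. The ISRE letters stood in the windows of 1 of the 10 genes and of 2.98% of all 32851 windows in that table. The GAS letters stood in 2 of the 10 and in 7.02% of all windows. The sequence of Socs1 is shown because it held a pair of ISRE matches, beginning 83 and 77 bases before the start and overlapping each other. That of Ifnar2 is shown for its GAS match, which begins 214 bases before the start. Both are printed 5′ to 3′ on the gene's strand, with the matched letters in capitals, for Socs1 chr16:10785537-10785786 (minus strand) and for Ifnar2 chr16:91372533-91372782 (plus strand).
Socs1: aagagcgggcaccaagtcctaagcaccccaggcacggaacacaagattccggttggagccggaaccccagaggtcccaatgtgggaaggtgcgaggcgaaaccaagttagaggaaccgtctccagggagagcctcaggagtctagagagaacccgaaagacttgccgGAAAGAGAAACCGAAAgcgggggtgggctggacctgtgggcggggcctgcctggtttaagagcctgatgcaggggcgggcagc
Ifnar2: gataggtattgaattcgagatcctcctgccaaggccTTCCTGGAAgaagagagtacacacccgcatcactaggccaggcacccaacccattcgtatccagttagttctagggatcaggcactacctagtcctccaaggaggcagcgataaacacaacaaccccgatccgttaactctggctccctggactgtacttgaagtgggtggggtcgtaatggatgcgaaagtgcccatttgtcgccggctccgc
Of Socs3, the GAS match (154 bases before the RefSeq start) is shown with 10 bases on each side, chr11:117969502-117969530, minus strand. GENCODE M21 places the outer end of Socs3 further upstream, so this site lies inside the gene in that annotation.
Socs3: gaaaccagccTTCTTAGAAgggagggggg
A match describes letters and is not evidence of binding. The windows of Jak2 and Cish, genes that differ between the groups below, held neither string, which says only that these letters are not in this window. GENCODE M21 also places the outer end of Cish further upstream, so the Cish window (chr9:107296409-107296658) lies inside the gene in that annotation.

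**Figure D1:**
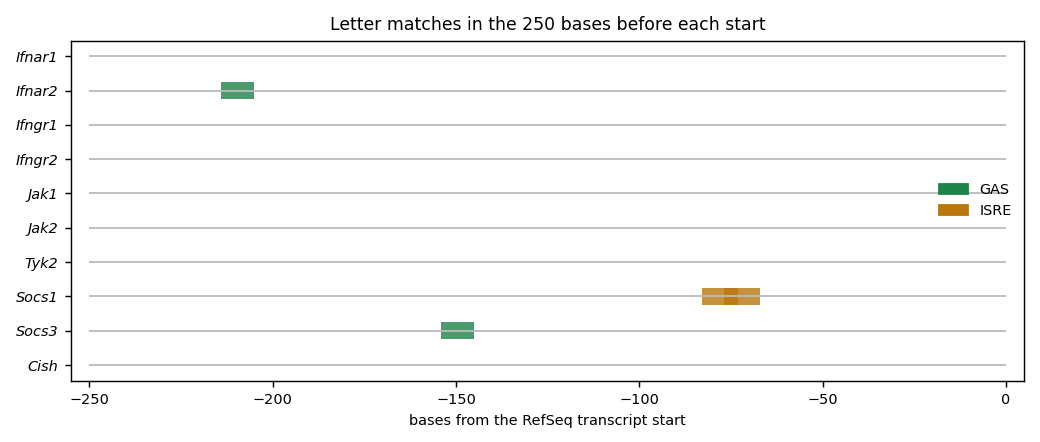
Position of the letter matches (green, GAS; brown, ISRE) in the 250 bases before the RefSeq start of each of the 10 genes, in bases from the start. Socs1 held both ISRE matches, 83 and 77 bases before its start, and Ifnar2 and Socs3 held 1 GAS match each.

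Values are reads scaled to library size (scaled CPM). Reads in genes of the table numbered 12444986 to 15308100 per library, and 1 read equalled 0.0625 to 0.0871 scaled CPM. Differences are on the log2(scaled CPM + 1) scale, given ± SE, and were tested with limma in a fit across all genes, with Benjamini-Hochberg adjustment and a threshold of 0.05. Wwtr1 stood at 213 and 218 in control, 4.79 and 5.03 in KO, and 3.07 and 4.00 in KO + H-151. Yap1 stood at 122 and 128 in control, 66.4 and 68.3 in KO, and 45.3 and 42.4 in KO + H-151. Both were lower in KO + H-151 than in KO, Yap1 by -0.61 ± 0.08 (adjusted p = 8.35e-06, limma) and Wwtr1 by -0.39 ± 0.13 (adjusted p = 0.0258). The treated and untreated knockout cells thus also differed in the targeted transcripts, and the part of this in other differences was not tested. Which exons are floxed is not stated, so a 3' tag may lie outside the deleted part. All 10 dermal fibroblast markers examined were in the table and summed to 32580 to 33127 scaled CPM in control, 37222 to 39144 in KO and 24147 to 26115 in KO + H-151. Col1a2, Col1a1, Vim and Col3a1 lead this sum (KO means of 15990, 9476, 5749 and 4883), which does not describe the markers as a set. With H-151, 5 markers rose and 5 fell from their KO level. Mean Pdgfra went from 68.1 to 142, and mean Col1a2 from 15990 to 10111. Relative to control, 3 markers (Col1a1, Col1a2 and Lum) passed as raised in KO and 1 as reduced, Pdgfra (mean 156 in control). The 3 raised calls were lost under both quantile normalization and total-count scaling. Dcn and Pdgfrb were called lower in KO under both, and Col3a1 (-0.36) and Vim (-0.31) under quantile normalization. The direction of these markers in KO thus depends on the scaling. Of other cell types, 16 of 16 macrophage markers were in the table, summing to 1411 to 1644 in control, 1748 to 1751 in KO and 3576 to 4377 in KO + H-151. All 6 adipocyte markers were in the table and summed to 1362 to 1603, 1210 to 1406 and 3206 to 4391. Melanocyte and Schwann cell markers (8 of 10 in the table) summed to 81.8 to 90.4, 181 to 195 and 86.4 to 104. Of 8 T, B and NK cell markers the table held Cd4, at no more than 1.63, and of 6 keratinocyte markers Krt10. Endothelial markers (7 of 8, without Tie1) summed to no more than 23.1 in any library. No listed marker was at 0 in all libraries. In these bulk libraries, fewer cells of a type and less RNA per cell cannot be told apart.

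Knockout and control cells were compared first, to see which of these genes change without YAP and TAZ. The inhibitors Socs1, Socs3 and Cish, the kinase Jak2 and the receptor chain Ifnar2 rose. Socs1 rose 22.1-fold and Jak2 3.36-fold in mean scaled CPM, Cish 1.95-fold, Ifnar2 1.59-fold and Socs3 1.41-fold. Jak1, Tyk2, Ifnar1, Ifngr1 and Ifngr2 did not pass the test. Of the 10 genes, 5 were higher and 0 lower, where 18.2% of all genes tested were higher and 14.2% lower. The median log2 difference was 0.41 for the 10 genes and -0.01 for all genes tested. With edgeR on the recovered reads, the same 5 genes were called higher (17.8% of all genes) and 0 lower (13.6% of all genes). At an unadjusted limma p under 0.05, 0 of the 10 were lower. Melanocyte and Schwann cell markers, which sum to more in KO (181 to 195) than in control (81.8 to 90.4), moved with these calls, and their part was not tested.

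The treated and untreated knockout cells were compared to see which genes change when H-151 is present. The 5 genes higher in KO than in control were lower in KO + H-151 than in KO. The differences in mean scaled CPM were 25.9-fold for Socs1, 3.29-fold for Jak2, 2.05-fold for Socs3, 1.49-fold for Ifnar2 and 1.27-fold for Cish. Ifngr2 rose 1.24-fold. Of the 10 genes, 1 was higher and 5 lower, where 19.4% of all genes tested were higher and 21.4% lower, and the median difference was -0.24 against 0.02 for all genes. With edgeR the same 6 genes were called (19.2% of all genes higher, 21.2% lower). Both comparisons share the KO libraries and are therefore not independent.

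Against control, the KO + H-151 libraries had higher Ifngr2, Tyk2 and Cish and lower Socs3. Thus 3 of the 10 genes were higher and 1 lower, where 11.5% of all genes tested were higher and 11.4% lower, with a median of 0.09 against 0.00 for all genes. With edgeR the same 4 genes were called (11.9% of all genes higher, 11.6% lower). Socs1, Jak2 and Ifnar2 did not pass in this comparison.

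**Figure D2:**
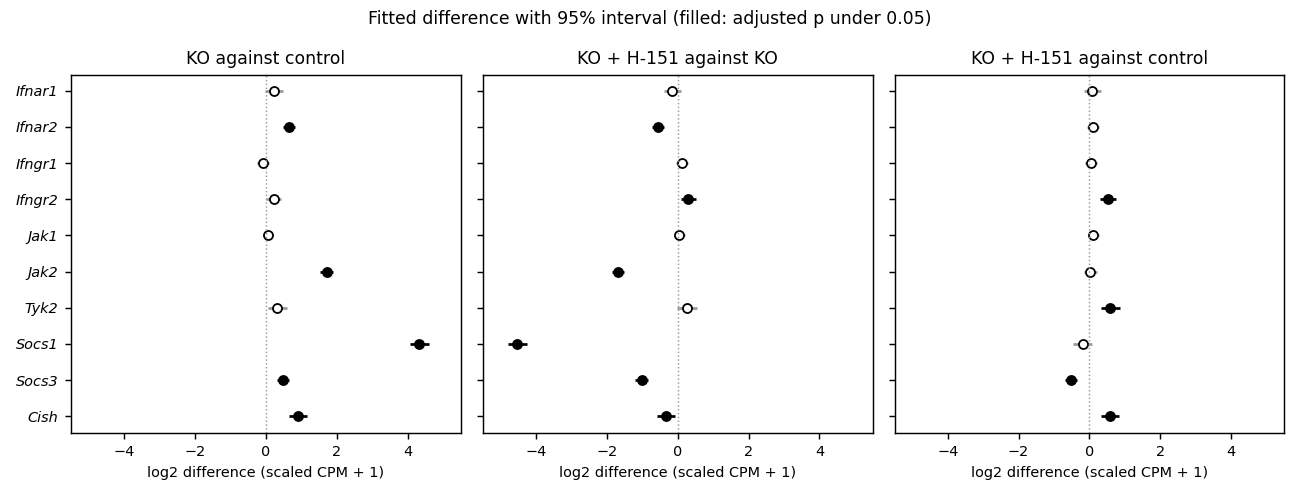
Fitted log2 differences of the 10 genes (points) with 95% intervals (lines) in the 3 comparisons; filled points have an adjusted p under 0.05. Socs1 has the outermost points in the first and second panels, at 4.33 and -4.52, and in the third panel Socs3 is the called gene below 0.

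Socs1 encodes an inhibitor that binds JAK kinases through its kinase inhibitory region and limits responses to both types of interferon. The gene lies on chromosome 16, 10782240 to 10785536 (GRCm38, GENCODE M21). It stood at 7.69 and 10.2 scaled CPM in the control libraries, at 194 and 200.1 in KO, and at 7.71 and 7.50 with H-151. Both KO libraries lay far above the other 4, and control and KO + H-151 met near 7.7. In reads, this was 108 and 141 in control, 2226 and 2349 in KO, and 118 and 120 in KO + H-151. The difference of KO from control was 4.33 ± 0.12 (adjusted p = 6.02e-14, limma) and that of KO + H-151 from KO was -4.52 ± 0.12 (adjusted p = 2.60e-14). KO + H-151 differed from control by -0.19 (95% interval -0.45 to 0.06, adjusted p = 0.292), an interval that leaves room for a lower level.

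Socs3, which acts on JAKs held by gp130 and related cytokine receptors, took another course. On chromosome 11 (117966079 to 117970047), it stood at 66.9 and 61.7 in control, 88.5 and 93.1 in KO, and 42.8 and 45.8 in KO + H-151. The 3 groups did not overlap, and the inhibitor-treated libraries lay below control. Socs3 was 0.49 ± 0.08 higher in KO than in control (adjusted p = 0.000176, limma) and differed by -1.02 ± 0.08 between KO + H-151 and KO (adjusted p = 3.55e-08). Against control, KO + H-151 differed by -0.53 ± 0.08 (adjusted p = 0.000178).

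Cish encodes CIS, an inhibitor induced by STAT5 downstream of cytokine receptors. The gene (chromosome 9, 107296026 to 107302784) stood at 15.4 and 14.6 in control, 31.9 and 26.5 in KO, and 22.9 and 23.1 in KO + H-151. The treated libraries lay between the other groups. Cish was higher in KO than in control by 0.91 ± 0.12 (adjusted p = 1.40e-05, limma), and still higher than control in KO + H-151 by 0.59 ± 0.12 (adjusted p = 0.00168). Its fall from KO to KO + H-151, -0.32 ± 0.12 (adjusted p = 0.0395), was lost without KO replicate 1 (-0.19, adjusted p = 0.333), without KO + H-151 replicate 1 (adjusted p = 0.0928) or replicate 2 (0.0816), under the 3 other scalings (0.0577 to 0.304), without a variance trend (0.0664) and with DESeq2 (0.0822). Over all 18 alternatives its adjusted p ran from 0.0300 to 0.333.

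In the summed tags of the 3 inhibitor genes, Socs1 made up 10.2% of control, 62.1% of KO and 10.2% of KO + H-151 tags (means of 2 libraries). Socs3 made up 72.9%, 28.7% and 59.1%, and Cish 17.0%, 9.21% and 30.8%. The sum itself was 90.0 and 86.4 scaled CPM in control, 314 and 320 (319.6) in KO, and 73.4 and 76.4 in KO + H-151. The share of Socs1 in treated cells was that of control, with a smaller share of Socs3 and a larger one of Cish. Levels of different genes are compared here as tags, which the 3' method does not scale with transcript length.

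**Figure D3:**
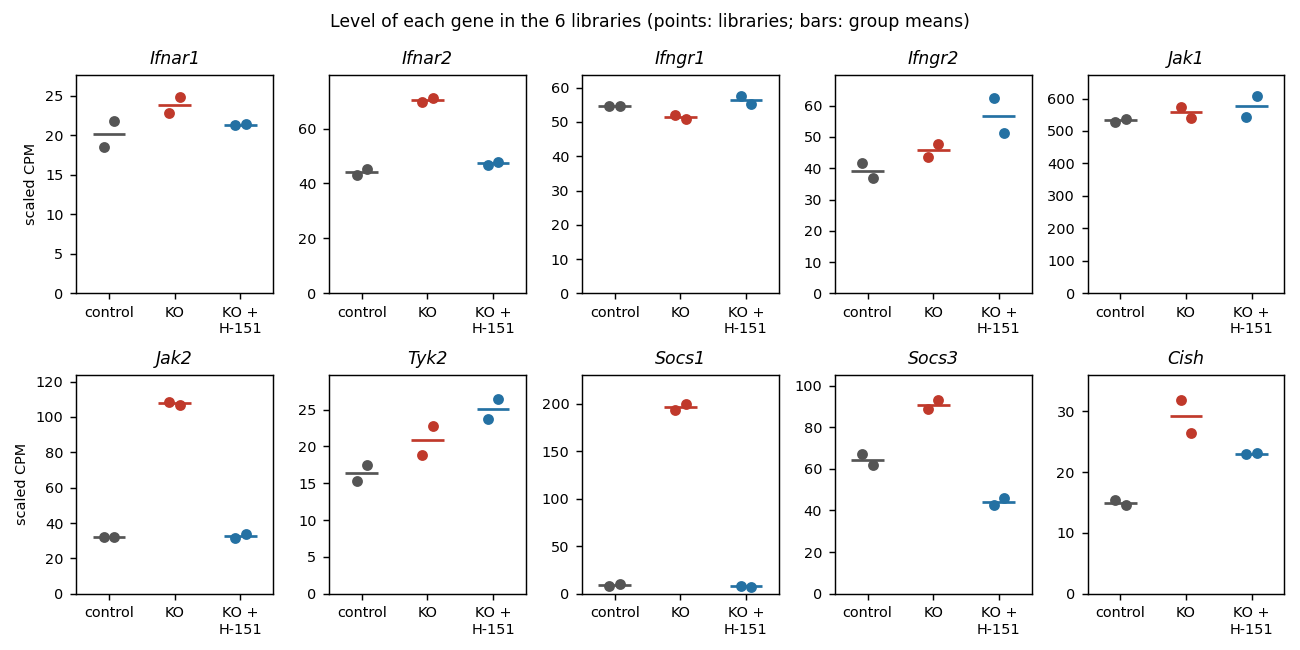
Scaled CPM (linear axis from 0) of each of the 10 genes in the 6 libraries; points are libraries and bars are group means, with n = 2 per group. Socs1, Jak2, Ifnar2, Socs3, Cish and Ifnar1 have both KO libraries above all others. Socs3 has treated libraries below control. Tyk2, Ifngr2, Ifngr1 and Jak1 have their highest means in KO + H-151.

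Among the kinases, Jak2, which serves the type II interferon receptor and many cytokine and hormone receptors, had the largest difference. The gene (chromosome 19, 29251828 to 29313080) stood at 32.3 and 32.0 in control, 109 and 107 in KO, and 31.7 and 33.9 in KO + H-151. Both KO libraries lay above the others, and control and treated libraries overlapped. The rise in KO was 1.72 ± 0.08 (adjusted p = 6.73e-11, limma), the change with H-151 was -1.69 ± 0.08 (adjusted p = 7.70e-11), and KO + H-151 differed from control by 0.03 (95% interval -0.15 to 0.21, adjusted p = 0.854).

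Jak1, which serves both interferon receptors, was the most abundant of the 10 genes in every library. It stood at 527 and 538 in control, 575 and 540.3 in KO, and 543 and 608 in KO + H-151. Control lay below the other groups, which overlapped each other, and every library lay between 527 and 608. No comparison passed in the main fit: KO differed from control by 0.07 (95% interval -0.08 to 0.21, adjusted p = 0.513, limma), and KO + H-151 from KO by 0.04 (-0.10 to 0.19, adjusted p = 0.648). The latter difference ran from -0.04 to 0.29 over the 18 alternatives. It stayed short of a call in 16 of them, and the lowest adjusted p was 0.00312. Jak1 (chromosome 4, 101152367 to 101265282) overlaps Gm12785 on its own strand and Raver2 on the other, and the strand setting of the counting is not given, so reads of that neighbour may be included.

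Tyk2, the kinase of IFNAR1, was the least abundant of these 3 kinase transcripts. The gene (chromosome 9, 21104068 to 21131243) stood at 15.3 and 17.4 in control, 18.8 and 22.8 in KO, and 23.8 and 26.5 in KO + H-151. The groups did not overlap. KO differed from control by 0.32 ± 0.13 (95% interval 0.05 to 0.60), which did not pass (adjusted p = 0.0624, limma), but passed with a term for the replicate number (0.0454) and without KO + H-151 replicate 1 (0.0446) or 2 (0.0462). The difference was 0.19 without KO replicate 2 (adjusted p = 0.415) and 0.17 under total-count scaling (adjusted p = 0.299), and over all 18 alternatives the adjusted p ran from 0.0446 to 0.415. KO + H-151 was 0.59 ± 0.13 higher than control (adjusted p = 0.00292), and its difference from KO was 0.26 ± 0.13 (adjusted p = 0.112).

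The type I receptor chains differed in their values. Ifnar2, the chain that binds interferon tightly and carries JAK1, stood at 43.2 and 45.3 in control, 69.5 and 71.0 in KO, and 46.8 and 47.7 in KO + H-151. KO libraries were above all others, and treated libraries lay slightly above control. Ifnar2 rose by 0.66 ± 0.08 in KO (adjusted p = 7.83e-06, limma) and changed by -0.56 ± 0.08 with H-151 (adjusted p = 3.46e-05). KO + H-151 differed from control by 0.09 (95% interval -0.08 to 0.27, adjusted p = 0.460). Ifnar1, the TYK2-bound chain, stood at 18.6 and 21.8 in control, 22.8 and 24.9 in KO, and 21.3 and 21.4 in KO + H-151. Treated and control libraries overlapped, and KO lay above both. Its difference of 0.23 ± 0.12 between KO and control (95% interval -0.01 to 0.48) did not pass (adjusted p = 0.143), nor did that of -0.15 ± 0.12 with H-151 (adjusted p = 0.332).

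The type II receptor chains showed no rise in KO that passed. Ifngr1, the chain that binds interferon gamma, stood at 54.8 and 54.8 in control, 52.1 and 50.8 in KO, and 57.7 and 55.2 in KO + H-151. It lay lowest in KO, by -0.09 (95% interval -0.26 to 0.08, adjusted p = 0.438, limma). This difference passed under quantile normalization (-0.23, adjusted p = 0.0370) and total-count scaling (-0.25, adjusted p = 0.0205), in a range over the 18 alternatives of 0.0205 to 0.681. In KO + H-151, Ifngr1 differed from KO by 0.13 ± 0.08 (adjusted p = 0.213, limma) and from control by 0.04 ± 0.08 (adjusted p = 0.768). The difference from KO ran from 0.10 to 0.31 over the 18 alternatives. It stayed short of a call in 16 of them, and the lowest adjusted p was 0.00537. Ifngr1 lies on chromosome 10, 19591949 to 19610229.

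Ifngr2, the signalling chain that carries JAK2, stood at 41.7 and 36.8 in control, 43.7 and 47.7 in KO, and 62.3 and 51.3 in KO + H-151. The groups did not overlap, and the treated libraries were the furthest apart. KO differed from control by 0.21 ± 0.10 (adjusted p = 0.129, limma). KO + H-151 was higher than control by 0.52 ± 0.10 (adjusted p = 0.00166) and higher than KO by 0.30 ± 0.10 (adjusted p = 0.0283). The call against KO was lost without KO replicate 1 (adjusted p = 0.216), KO replicate 2 (0.0693) or KO + H-151 replicate 1 (0.16, adjusted p = 0.260), without a variance trend (0.116) and with DESeq2 (0.0736), in a range over the 18 alternatives of 0.00155 to 0.260. Macrophages also express these receptor and kinase genes. Of the 16 macrophage markers, 16 were higher and 0 lower in KO + H-151 than in KO, with summed levels of 3576 to 4377 against 1748 to 1751, and 15 were higher than in control. The 6 adipocyte markers were likewise higher against both groups. The part of either in the higher Ifngr2, Tyk2 and Cish was not tested.

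Ifnar2, Il10rb, Ifnar1 and Ifngr2 stand next to each other on the plus strand of chromosome 16 within 192.8 kb (91372783 to 91565623). The neighbours differed in value. Il10rb, which encodes a chain shared by the receptors of interleukin 10 and lambda interferons, stood at 24.4 and 26.4 in control, 33.7 and 31.6 in KO, and 40.8 and 36.0 in KO + H-151. Il10rb had its highest values in the treated libraries, like Ifngr2 and unlike Ifnar2. Like Ifnar2, it was higher in KO than in control, by 0.35 ± 0.10 (adjusted p = 0.0146, limma). That call of Il10rb was lost under quantile normalization and total-count scaling. Il10rb was also higher in KO + H-151 than in control, by 0.58 ± 0.10 (adjusted p = 0.000601). Its difference between KO + H-151 and KO, 0.23 ± 0.10, did not pass (adjusted p = 0.0921), but passed under quantile normalization and total-count scaling. The annotated gene Gm21970 overlaps both Ifnar2 and Il10rb on the same strand, so reads in the shared part may have been assigned elsewhere or left out.

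Ratios between genes of 1 library do not change with the scaling of libraries. The ratio of Ifnar2 to Ifnar1 was 2.33 and 2.08 in control, 3.05 and 2.86 in KO, and 2.20 and 2.22 in KO + H-151. The ratio of Ifngr2 to Ifngr1 was 0.762 and 0.672 in control, 0.839 and 0.938 in KO, and 1.08 and 0.930 in KO + H-151. Thus the type I ratio was highest in KO, whereas the type II ratio was lowest in control and overlapped between the other groups. The ratio of Jak2 to Jak1 was 0.0612 and 0.0595 in control, 0.189 and 0.198 in KO, and 0.0584 and 0.0557 in KO + H-151. The ratio of Socs1 to Jak2 was 0.238 and 0.318, 1.78 and 1.87, and 0.243 and 0.221 in the same order. The tags of the inhibitor therefore outnumbered those of the kinase in KO libraries and were fewer in all others. With 2 libraries per group these ratios were not tested.

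**Figure D4:**
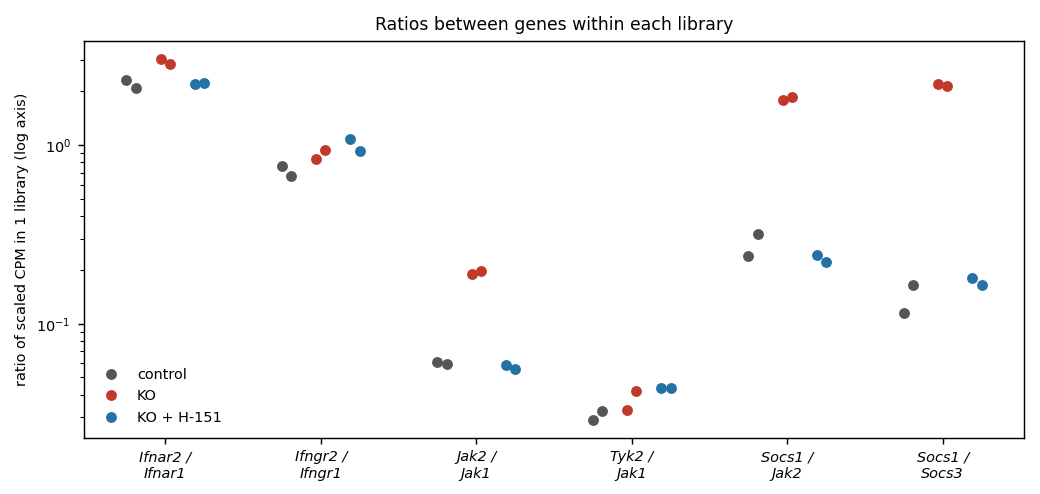
Ratio of scaled CPM between pairs of genes within each library (log axis; each point 1 library, coloured by group). The ratios of Socs1 to Jak2 and Socs1 to Socs3 are above 1 in both KO libraries and below 1 in the other 4.

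In control, the order of levels ran from Jak1 (mean 532 scaled CPM) through Socs3 (64.3), Ifngr1 (54.8), Ifnar2 (44.2), Ifngr2 (39.3), Jak2 (32.1), Ifnar1 (20.2), Tyk2 (16.4) and Cish (15.0) to Socs1 (8.93). Of neighbours in this order, Tyk2 and Cish overlapped between libraries. In KO the order was Jak1 (558), Socs1 (197), Jak2 (108), Socs3 (90.8), Ifnar2 (70.3), Ifngr1 (51.5), Ifngr2 (45.7), Cish (29.2), Ifnar1 (23.8) and Tyk2 (20.8), where Ifnar1 and Tyk2 overlapped. Socs1 thus moved from the last place to the place behind Jak1. In KO + H-151 it was last again (7.61), behind Jak1 (576), Ifngr2 (56.8), Ifngr1 (56.4), Ifnar2 (47.3), Socs3 (44.3), Jak2 (32.8), Tyk2 (25.1), Cish (23.0) and Ifnar1 (21.4), and Ifngr2 and Ifngr1 overlapped.

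Other genes of the pathway were taken from lists made by function and are described by counts, beside the shares of all genes given above. Group means in scaled CPM are given ± the standard deviation of the 2 libraries, and log2 differences ± SE as before. Of 21 interferon genes searched for, the table held Ifnb1, which encodes interferon beta, with 0 reads in both control libraries, 37 and 28 reads in KO and 0 in both treated libraries. A count of 0 allows up to 3 reads per library, for counting error only. Among transcription factors of the pathway, Irf1, which activates interferon-stimulated genes, rose from 32.1 ± 1.15 to 974 ± 23.5 in KO (4.88 ± 0.08). Stat2 rose from 50.02 ± 5.79 to 416 ± 4.43 (3.04 ± 0.08). Stat3 rose from 650.1 ± 10.2 to 909 ± 8.98 (0.48 ± 0.07). Of 10 interferon-stimulated genes listed as a readout of the pathway, 8 reached 1 scaled CPM in a library outside KO, and these 8 rose in KO and fell with H-151, with medians of 5.31 and -7.35. Among them, Ifit3 rose by 6.23 ± 0.08, Isg15 by 5.20 ± 0.10 and Ifit1 by 7.27 ± 0.16. Against control, 7 of the 8 were lower in KO + H-151, with a median of -1.26, and 0 were higher. The other 2, Oasl1 and Mx1, passed the filter on low values only through KO. Oasl1 had 5 and 8 reads in control, 3780 and 4104 in KO and 3 and 3 with H-151, so its fitted rise depends on the pseudocount (7.86 with limma, 9.48 with edgeR). Mx1, named after its values were seen, had 3 and 8, 4821 and 4715, and 0 and 3 reads. The zero counts of this list were also 0 with edgeR and at an unadjusted p. Usp18 stands in this list and in the next.

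Of 17 other brakes of JAK-STAT signalling, 7 rose and 2 (Socs5 and Cbl) fell in KO, with a median of 0.19. Under total-count scaling 5 rose and 5 fell, as Socs6 and Sh2b3 were lost and Pias3, Pias4 and Ptpn11 were gained as lower. Usp18, a protease that also blocks IFNAR2 from engaging JAK1, rose from 7.85 ± 0.928 to 377 ± 17.0 (5.42 ± 0.13) and stood at 0.955 ± 0.242 in KO + H-151. Socs7 rose from 41.3 ± 1.26 to 124 ± 1.51 (1.56 ± 0.10). The JAK phosphatase gene Ptpn2 rose from 30.3 ± 0.711 to 79.5 ± 1.49 (1.36 ± 0.09) and stood at 28.5 ± 0.928 with H-151. Ptpn1, the most abundant of the list, stood at 145 ± 5.31 and 162 ± 9.41 in control and KO (adjusted p = 0.131, limma). Socs2, named after its values were seen, stood at 116 ± 0.945, 184 ± 0.619 and 151.4 ± 2.34 in control, KO and KO + H-151. In these values it lay, like Cish, between the other groups in the treated cells. Its fall with H-151, -0.28 ± 0.06, was lost under quantile normalization (-0.07, adjusted p = 0.380, limma) and total-count scaling (-0.10, adjusted p = 0.210). Socs5, from the same family, stood at 58.5 ± 2.32, 31.7 ± 0.539 and 46.1 ± 2.60 in control, KO and KO + H-151. With H-151, 4 members (Socs5, Pias4, Ptpn6 and Cbl) rose and 7 fell, a balance that turned to 5 and 4 under quantile normalization and to 6 and 4 under total-count scaling. Ptpn6, a phosphatase of blood cells, was 1.09 ± 0.15 higher in KO + H-151 than in KO, beside the higher macrophage markers given above.

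SOCS proteins recruit a ubiquitin ligase through their SOCS box. Of 6 genes for its partners, 1 (Cul2) rose in KO and 0 fell, with a median of 0.05, and 3 (Elob, Eloc and Cul2) fell with H-151. With edgeR and at an unadjusted limma p, 0 fell in KO. Under total-count scaling Rnf7 was called lower in KO (-0.27, adjusted p = 0.0250, limma). Cul2 rose from 35.9 ± 3.29 to 52.9 ± 1.43 (0.55 ± 0.09), while Eloc stood at 133 ± 2.57 and 144 ± 2.31, Rnf7 at 49.7 ± 0.948 and 46.2 ± 2.87, and Elob at 258 ± 0.258 and 261 ± 14.1. The fall of Elob with H-151, -0.18 ± 0.07 (adjusted p = 0.0384, limma), took the other sign under quantile normalization (0.06). It was lost in 5 of the 6 fits that left out 1 library and kept without KO + H-151 replicate 2. The fall of Eloc, -0.25 ± 0.07 (adjusted p = 0.00876), was lost without KO replicate 1 (0.0791) or KO + H-151 replicate 1 (0.0579) and without a variance trend (0.0712). It shrank to -0.06 under quantile normalization (adjusted p = 0.540) and -0.07 under total-count scaling (adjusted p = 0.397).

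Of 20 other receptors that signal through JAK kinases, and Jak3, 9 rose and 3 (Il6st, Il4ra and Il7r) fell in KO, with a median of 0.22 over the 21 genes. This became 5 and 5 under total-count scaling and 5 and 2 without KO replicate 2, where Il10rb, Il2rg, Ghr, Jak3 and Il7r were lost. Il15ra rose from 7.52 ± 0.747 to 45.9 ± 4.34 (2.46 ± 0.17) and Il13ra1 from 39.1 ± 1.70 to 88.8 ± 12.9 (1.16 ± 0.10). Il4ra fell from 301 ± 20.8 to 178 ± 7.48 (-0.75 ± 0.08). It stood at 121 ± 12.5 with H-151. Il6st, which encodes gp130, fell from 476 ± 1.35 to 367 ± 4.03 (-0.38 ± 0.06). With H-151, 7 of the 21 rose (Il11ra1, Il7r, Csf2ra, Csf2rb, Csf2rb2, Ghr and Prlr) and 6 fell. Il10rb, Il6ra and Il3ra were also called higher under total-count scaling, and Il10rb and Il6st under quantile normalization. The call of Csf2rb2 was lost with DESeq2, and those of Il11ra1 and Ghr without a variance trend. Macrophage markers were also higher with H-151, as given above, and their part in these calls was not tested. Of 8 cytokines of these receptors, 5 (Il6, Lif, Clcf1, Il7 and Il15) rose and 0 fell in KO, and 0 rose and 6 fell with H-151. The count that rose in KO was 4 with edgeR, 3 with DESeq2 and under total-count scaling, 3 without control replicate 1 or KO replicate 2, and 2 (Il6 and Il15) without control replicate 2 or KO replicate 1. With edgeR 6 fell with H-151, and the zero counts were also 0 there and at an unadjusted limma p. Il15 rose from 1.29 ± 0.619 to 14.4 ± 1.42 (2.77 ± 0.24) and Il6 from 14.5 ± 0.486 to 44.1 ± 7.02 (1.53 ± 0.14), and Il6 stood at 2.55 ± 0.101 with H-151. The rise of Il7, 0.72 ± 0.19 (adjusted p = 0.00714, limma), was lost without control replicate 2 (0.0602) or KO replicate 1 (0.0906).

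**Figure D5:**
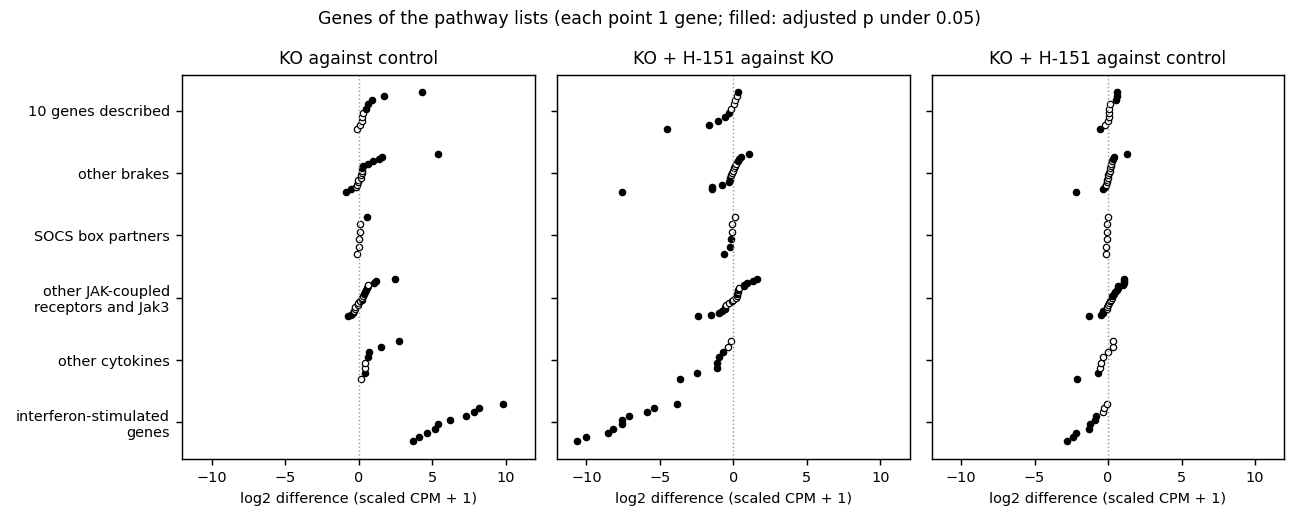
Log2 difference of each tested gene of the pathway lists (1 point per gene; filled points have an adjusted p under 0.05) in the 3 comparisons. All 10 interferon-stimulated genes lie right of 0 in KO against control and left of 0 with H-151, whereas the other receptors lie on both sides in each panel.

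Of the 10 genes, 7 passed in at least 1 comparison, and for each the 2 most alike of 10169 candidate genes were found by the root mean square (RMS) difference between mean-centred log2 profiles over the 6 libraries. Socs1 was nearest to Gbp9, a guanylate-binding protein gene (RMS 0.0633), and Rnf213, which encodes a giant ubiquitin ligase (0.0887). Gbp9 averaged 0.933 scaled CPM in control, 35.3 in KO and 0.543 with H-151, so it was a candidate only through KO, and the pseudocount of 1 compresses its differences. Jak2 was nearest to Usb1, which processes U6 small nuclear RNA (0.0642), and Ogfr (0.0671). Ifnar2 was nearest to Crot, a carnitine acyltransferase gene (0.0223), and Parp4 (0.0290). Socs3 was nearest to Syvn1, a ubiquitin ligase of the endoplasmic reticulum (0.0543), and Snhg8 (0.0637). Cish was nearest to Dock10 (0.0970) and Flt3l (0.101), Ifngr2 to Fam20c (0.0443) and Optn (0.0489), and Tyk2 to Aacs (0.0614) and Crabp1 (0.0626). These neighbours share their 6 libraries with the genes they were matched to, and the likeness is a description of levels.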

How the data were processed

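QuantSeq libraries were made per the labels. The submitters' processing notes name STAR 2.5.3a, edgeR, featureCounts and mm10, without their roles. Gene annotation, strand setting and any filter on low genes are not given in the sources used here. The values deposited by the authors are a signal in scaled CPM, with column sums of 955838 to 1083568. All values were whole multiples of 1 step per library within 0.0006, so whole reads were recovered for 100.0% of values. The design was written for plain CPM and was kept.

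Values were transformed to log2(scaled CPM + 1), and the 13648 genes that reached 1 scaled CPM in 2 or more libraries were fitted with limma 3.58.1 (R 4.3.3; 1 mean per group over all 6 libraries, variance trend, 3 residual degrees of freedom, 15.7 after moderation). The fit was tested on simulated data. Alternatives were other pseudocounts, filters, scalings and fits, a replicate term, each library left out, and edgeR 4.0.16 and DESeq2 1.42.0 on the reads. The edgeR quasi-likelihood test called 2423 genes higher and 1851 lower for KO against control, 2614 and 2899 for KO + H-151 against KO, and 1626 and 1585 for KO + H-151 against control. Positions are from GENCODE M21 (GRCm38, the same build as mm10), which matched all 10 genes. Named genes are the 10 members and, per list, the 3 with the smallest p in KO against control and the 1 with the highest mean. Some items the rule names, and the counts of their list, are not reported here. Likeness was computed over genes with a mean of at least 5. The members and lists were chosen with earlier results of these data known.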

Additional observations from a re-analysis of the deposited data

How the results depend on the processing

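The 30 log2 differences of the 10 genes (3 comparisons) were recomputed under 18 alternatives, 540 values in all. Of these, 517 stayed on their side of the threshold, 13 lost a call, 10 gained one and 0 called values took the other sign. The calls of Ifnar2, Jak2, Socs1 and Socs3 in KO against control and with H-151, that of Cish in KO, and all 4 calls of KO + H-151 against control held in all 18. The count of the 10 genes higher with H-151 (1, Ifngr2) was 0 to 1 with each library left out, 0 being without KO replicate 1, KO replicate 2 or KO + H-151 replicate 1. It was 3 under quantile normalization, 4 under total-count scaling, 0 without a variance trend and 0 with DESeq2. The count of the 10 genes lower in KO was 1 (Ifngr1) with quantile normalization, and also 1 with total-count scaling.

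Over all genes, the count lower in KO (1938) was 1266 over genes with a mean of at least 10, 2987 with quantile normalization, 4054 under total-count scaling, 1217 with DESeq2 and 1165 to 2186 with 1 library left out (1252 and 1171 without control replicate 1 or 2, 1184 and 1165 without KO replicate 1 or 2). Genes higher with H-151 (2643) were 1676 with that filter, 4768 under total-count scaling and 1776 to 2536 with 1 library left out, and genes lower (2923) were 1930 under total-count scaling. Genes lower in KO + H-151 than in control (1562) were 937 without a variance trend and 924 to 1499 with 1 library left out, and those higher (1570) 951 to 1373, both lowest without control replicate 2. The median log2 difference of all genes moved from -0.01 to -0.16 in KO and from 0.02 to 0.18 with H-151 under total-count scaling, and the share of higher among called genes from 56.2% to 29.9% and from 47.5% to 71.2%. Under quantile normalization these shares were 39.1% and 61.9%, and in KO the share was 45.9% under median scaling. The cause was not tested.

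The replicate numbers mark no shared animal or culture in the labels. Correlations over genes of the replicate differences were -0.07 for control and KO, 0.15 for control and KO + H-151 and -0.13 for KO and KO + H-151. With a replicate block, 6 of the 10 genes were higher in KO, Tyk2 being added, with 2430 genes higher and 1887 lower in all, and no other call of the 10 genes changed. With 2 libraries per group, 1 lone library was assumed to vary like the other groups where its partner was left out.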
